A study of Mus musculus with 6 samples.

Results

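A set of 9 complement genes were examined in the ageing mouse cochlea, and they were chosen by name from the complement cascade: C1qa, C1qb, C1qc, C3, C4b, Cfb, C2, Serping1 and C3ar1. The choice was made with earlier results of these data known. All 9 were among the 25419 genes of the RNA-sequencing table, and all 9 were among the 19465 genes that passed the filter on low values. The table holds 6 samples of cochlear basilar membrane from untreated C57BL/6 mice, 3 from young mice aged 1 month and 3 from old mice aged 12 months, and the tissue of 3 mice was mixed for each sample. C57BL/6 is an inbred strain that loses hearing early in life, and the sex of the animals was not stated in the sources used here. Values are FPKM, sequenced fragments scaled to transcript length and to the size of the library, summed over the transcripts of each gene.

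Complement is a cascade of proteins that marks microbes, dying cells and debris for removal. The classical pathway starts when C1q, built from the chains of C1qa, C1qb and C1qc, binds its target; C4 and C2 are then cleaved to form an enzyme that splits C3, and factor B, encoded by Cfb, builds the corresponding enzyme of the alternative pathway. Serping1 encodes the C1 inhibitor, which blocks the proteases attached to C1q, and C3ar1 encodes the receptor for the C3a fragment. In many tissues C1q is made mainly by macrophages, whereas C3, C4 and factor B are also made by other cells and are inducible by cytokines. In bulk tissue, more cells of a type and more RNA per cell cannot be told apart.

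The regions just before the start of the member genes are shown as a description, where available. Of the genes shown, C1qb and C1qc were higher in old mice at a limma adjusted p under 0.05, and C3 and C3ar1 did not pass. No region was available for the other genes that passed, C1qa, C4b and C2. RefSeq's promoter table (GRCm38.p6) held 4 of the 9 members, and all 4 lie on the minus strand. The bases are written 5′ to 3′ in the direction of transcription, and capitals mark a motif match. They cover chr4:136886201-136886450 for C1qb, chr4:136893066-136893164 for C1qc, chr17:57228137-57228386 for C3 and chr6:122856162-122856407 for C3ar1. RefSeq's start lies inside the GENCODE gene for C1qc and C3ar1, so only the 99 and 246 bases of their 250-base windows that lie outside the gene are given, while motifs were searched in the whole windows.
C1qb: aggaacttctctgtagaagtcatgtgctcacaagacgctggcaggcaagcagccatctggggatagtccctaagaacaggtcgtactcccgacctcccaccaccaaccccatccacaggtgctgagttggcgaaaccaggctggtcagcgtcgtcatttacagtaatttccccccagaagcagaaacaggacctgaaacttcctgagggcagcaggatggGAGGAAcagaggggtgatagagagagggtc
C1qc: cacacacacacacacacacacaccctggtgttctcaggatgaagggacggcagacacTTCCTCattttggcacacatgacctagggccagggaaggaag
C3: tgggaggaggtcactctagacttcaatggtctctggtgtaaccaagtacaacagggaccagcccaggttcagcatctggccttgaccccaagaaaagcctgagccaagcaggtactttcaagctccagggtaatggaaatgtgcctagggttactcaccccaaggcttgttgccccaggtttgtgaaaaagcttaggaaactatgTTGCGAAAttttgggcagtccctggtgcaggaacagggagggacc
C3ar1: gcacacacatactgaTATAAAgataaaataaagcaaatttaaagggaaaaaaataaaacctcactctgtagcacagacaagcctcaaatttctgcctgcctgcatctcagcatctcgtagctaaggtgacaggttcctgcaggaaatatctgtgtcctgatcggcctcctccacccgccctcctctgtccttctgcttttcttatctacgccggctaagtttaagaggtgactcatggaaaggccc
Positions are counted back from the end of the GENCODE gene, which is its 5′ end on this strand. C1qb held the PU.1 site GAGGAA 43 to 38 bases before the gene, and C1qc held it on the opposite strand 42 to 37 bases before the gene. PU.1 is a transcription factor of macrophages and other myeloid cells. C3 held a C/EBP site (TTGCNNAA, N being any base) 45 to 38 bases before the gene, and C3ar1 held a TATA box (TATAAA) 231 to 226 bases before the gene. The interferon-stimulated response element, searched as GAAA followed by any 2 bases and GAAA, and the gamma-activated site, searched as TTCNNNGAA, had no match in the 4 windows. Among 32851 windows of the same table, searched on both strands, the PU.1 site was found in 23.3%, the C/EBP site in 9.56%, the TATA box in 12.4%, the interferon-stimulated element in 2.98% and the gamma-activated site in 7.02%. A match of this kind describes the letters and is not evidence of binding.

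Among the samples, 2 stood apart. Young replicate 1 had a summed FPKM of 432.9 over 8 neutrophil markers, against 11.6 to 82.5 in the other 5 samples. Old replicate 2 had a summed FPKM of 1368.1 over 18 interferon response genes, against 503.4 and 726.2 in the other old samples. The depth, inferred from the smallest increments of FPKM, was 12490000 to 15680000 fragments per sample. Of the markers of the labelled tissue, Gjb2 and Gjb6 of the supporting cell list and Calb2 of the hair cell list were abundant in both groups. Calb2 was at 702.6 ± 175.8 FPKM in young mice and lower, at 319.0 ± 25.6 FPKM, in old mice (SD, n = 3, limma adjusted p = 0.02). Which cells carried Calb2 in this bulk tissue was not tested.

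Of these, 5 complement genes were higher in old mice, namely C1qa, C1qb, C1qc, C4b and C2, and none was lower. The 5 called genes are to be read against 5.65% of all tested genes called higher and 3.81% called lower (limma, Benjamini-Hochberg adjusted p under 0.05 over 19465 genes). Because earlier results were known when the genes were chosen, this comparison is a description. In 8 of the 9 genes, all but C3ar1, every old sample lay above every young sample, a pattern shown by 17.6% of all tested genes, with the opposite pattern in 16.1%. The change was above 0 in all 9, with a median of 1.93 on the log2 scale against 0.0088 over all tested genes. At an unadjusted p under 0.05, 8 of the 9 passed, but the share of all tested genes at that threshold was not counted. Because each sample mixed 3 mice, p-values measure the spread between mixed samples.

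**Figure D1:**
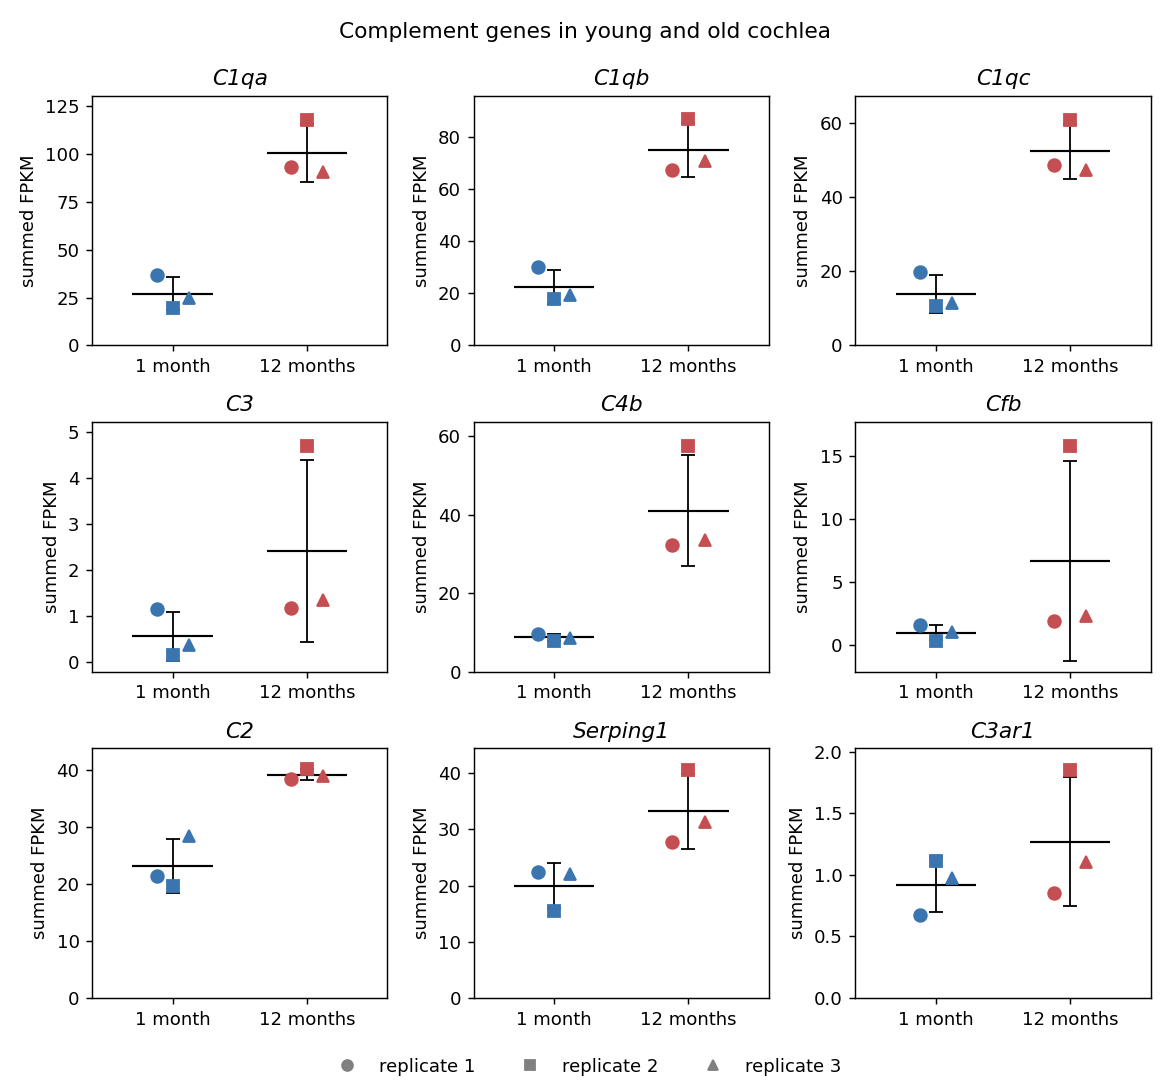
Summed FPKM (vertical axis) of each complement gene in the 3 young (1 month, blue) and 3 old (12 months, red) samples, with marker shapes for replicate numbers and lines for the mean ± SD (n = 3). The old samples of C1qa lie at 90.8 to 118.1 FPKM, above the young samples at 19.8 to 36.9, whereas old replicate 2 alone stands far above the rest for C3 and Cfb.

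The 3 chains of C1q, the recognition part of the classical pathway, rose together. C1qa (ENSMUSG00000036887, chr4:136895917-136898803 of GRCm38, minus strand) measured 36.9, 19.8 and 24.6 FPKM in young replicates 1, 2 and 3 and 93.0, 118.1 and 90.8 FPKM in old replicates 1, 2 and 3. All old samples lay above all young ones, and C1qa rose from 27.1 ± 8.83 to 100.6 ± 15.2 FPKM (SD, n = 3), a log2 change of 1.93 with a standard error of 0.22 (limma adjusted p = 0.0111).

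C1qb (ENSMUSG00000036905, chr4:136880129-136886187, minus strand) measured 30.1, 17.7 and 19.5 FPKM in young samples and 67.4, 87.0 and 70.8 FPKM in old samples. The groups did not overlap, and the log2 change was 1.77 ± 0.20 (SE; limma adjusted p = 0.0111). C1qc (ENSMUSG00000036896, chr4:136889804-136893065, minus strand) measured 19.9, 10.7 and 11.3 FPKM in young samples and 48.7, 60.9 and 47.4 FPKM in old samples. It rose by 1.95 on the log2 scale (SE 0.23; limma adjusted p = 0.0111), again without overlap.

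These chains assemble in equal numbers into the C1q protein, and the share of each in the C1q RNA was within a few percentage points at both ages. Of the summed C1q FPKM, C1qa held 42.7 ± 1.64% in young and 44.1 ± 0.587% in old mice. C1qb held 35.5 ± 1.11% in young and 32.9 ± 0.848% in old mice, and C1qc held 21.8 ± 1.24% and 23.0 ± 0.300% (SD, n = 3). The share of C1qb was 34.6 to 36.8% in young and 32.2 to 33.9% in old samples, without overlap, whereas those of C1qa and C1qc overlapped. Without old replicate 2 the limma adjusted p of the 3 chains lay between 0.0510 and 0.0541, above the threshold of 0.05, while the log2 changes stayed at 1.66 to 1.84.

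Downstream of C1q, C4b and C2 rose while C3 had a wide spread. C4b (ENSMUSG00000073418, chr17:34728380-34743882, minus strand), which encodes complement C4, measured 9.61, 7.89 and 8.67 FPKM in young samples and 32.3, 57.6 and 33.5 FPKM in old samples. C4b rose by 2.18 ± 0.22 on the log2 scale (SE; limma adjusted p = 0.00847), and stayed past the threshold without old replicate 2 (limma adjusted p = 0.00778). Of the 100-base windows of C4b, 16.5% also occur in its near copy C4a, so reads may be split between the pair. C4a was low, at 0.305 to 1.03 FPKM in young and 0.262 to 1.26 FPKM in old samples.

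C2 (ENSMUSG00000024371, chr17:34862604-34898265, minus strand), the protease that joins C4b, measured 21.4, 19.7 and 28.5 FPKM in young samples and 38.4, 40.3 and 39.1 FPKM in old samples. The old samples were close together and all above the young ones, and C2 rose by 0.77 ± 0.14 on the log2 scale (SE, limma adjusted p = 0.0224). The call was kept in 1 of the 6 fits that left out a sample, the one without young replicate 3. Over these fits the log2 change was 0.67 to 0.93 and the limma adjusted p 0.00521 to 0.0844. C2 shares 53.2% of its 100-base windows with the readthrough gene Gm20547, which was listed at under 0.1 FPKM in every sample.

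C3 (ENSMUSG00000024164, chr17:57203970-57228136, minus strand), the central protein on which the pathways converge, measured 1.16, 0.149 and 0.366 FPKM in young samples and 1.18, 4.70 and 1.36 FPKM in old samples. Old replicate 1 was barely above young replicate 1, and old replicate 2 was 3.70 times the mean of the other old samples. The log2 change of 1.98 (SE 0.71; 95% interval 0.32 to 3.64) did not pass the threshold (limma adjusted p = 0.122). It was 1.37 without old replicate 2 and 2.61 without young replicate 1.

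Cfb (ENSMUSG00000090231, chr17:34856374-34862518, minus strand), the alternative pathway protease, leaned even more on 1 sample. It measured 1.59, 0.383 and 1.05 FPKM in young samples and 1.95, 15.8 and 2.29 FPKM in old samples. Old replicate 2 was 7.45 times the mean of the other old samples, and the log2 change of 2.13 (SE 0.82) did not pass the threshold (limma adjusted p = 0.144). Without old replicate 2 the log2 change was 1.18.

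Serping1 (ENSMUSG00000023224, chr2:84765387-84775444, minus strand), the inhibitor of the C1 proteases, measured 22.5, 15.4 and 22.1 FPKM in young samples and 27.7, 40.6 and 31.3 FPKM in old samples. The groups did not overlap, but the log2 change of 0.73 ± 0.19 (SE) just missed the threshold (limma adjusted p = 0.0537). C3ar1 (ENSMUSG00000040552, chr6:122847138-122856161, minus strand), the C3a receptor, measured 0.674, 1.11 and 0.976 FPKM in young samples and 0.850, 1.85 and 1.11 FPKM in old samples. Here the groups overlapped, and the log2 change was 0.38 with a 95% interval of -0.43 to 1.2 (limma adjusted p = 0.517). The log2 change of C3ar1 was 0.19 without young replicate 1 and 0.09 without old replicate 2.

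All 9 genes were highest in old replicate 2, and 8 of the 9 were lowest in young replicate 2. The excess of old replicate 2 was smallest for C2, at 1.04 times the mean of the other old samples. For C1qa, C1qb and C1qc it was 1.26 to 1.29 times, for Serping1 1.38, for C4b 1.75 and for C3ar1 1.89 times.

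In young mice the order of mean FPKM, a level per transcript length, was C1qa, C2, C1qb, Serping1, C1qc, C4b, Cfb, C3ar1 and C3. Neighbours in that order were separated without overlap only between C1qc and C4b and between C4b and Cfb. In old mice the order was C1qa, C1qb, C1qc, C4b, C2, Serping1, Cfb, C3 and C3ar1. C4b stood above C2 in old replicate 2 only, at 57.6 against 40.3 FPKM, and below it in the other old samples. In old mice, neighbours were separated only between C1qa and C1qb, between C1qb and C1qc, and between Serping1 and Cfb.

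At the level of single transcripts, 21 transcripts of the 9 genes were listed and 16 were tested. Higher in old mice were 4, the single listed transcripts of C1qa, C1qb, C1qc and C4b, against 0.549% of all 38764 tested transcripts. The main transcript of C2 (ENSMUST00000025230) held 93.8% of the gene in young and 95.2% in old mice, and that of Serping1 (ENSMUST00000023994) held 98.8% and 99.4%. C3 was carried by ENSMUST00000024988, with 96.7% and 100% of the gene.

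Cfb was divided among overlapping models, some of them short partial ones, and the division of reads between them is uncertain. ENSMUST00000128767 held 0.881% of Cfb in young and 56.0% in old mice, with 0.227, 9.30 and 1.72 FPKM in old replicates 1, 2 and 3. Its log2 change of 4.03 ± 1.18 (SE) did not pass the threshold (limma adjusted p = 0.158), and 81.0% of its 100-base windows also occur in Gm20547. ENSMUST00000025229 held 42.1% in young and 23.0% in old mice, ENSMUST00000154526 held 24.9% and 7.12%, ENSMUST00000153400 held 17.1% and 4.76%, and ENSMUST00000176332 held 15.0% and 2.86%.

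The wider complement system was followed in a list of 55 genes, of which 40 were tested. Of these, 10 rose and 1 fell with age, and the median over the 40 was 0.32 on the log2 scale. Leaving aside the 9 genes above, 31 were tested, 5 were higher and 1 was lower, and the median was 0.13. Without old replicate 2 the number higher in the whole list was 1, C4b. Of the 6 fits that left out a sample, C1ra was called in 0, Clu in 1, Itgam in 2, and Itgax and Itgb2 in 4 each.

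**Figure D2:**
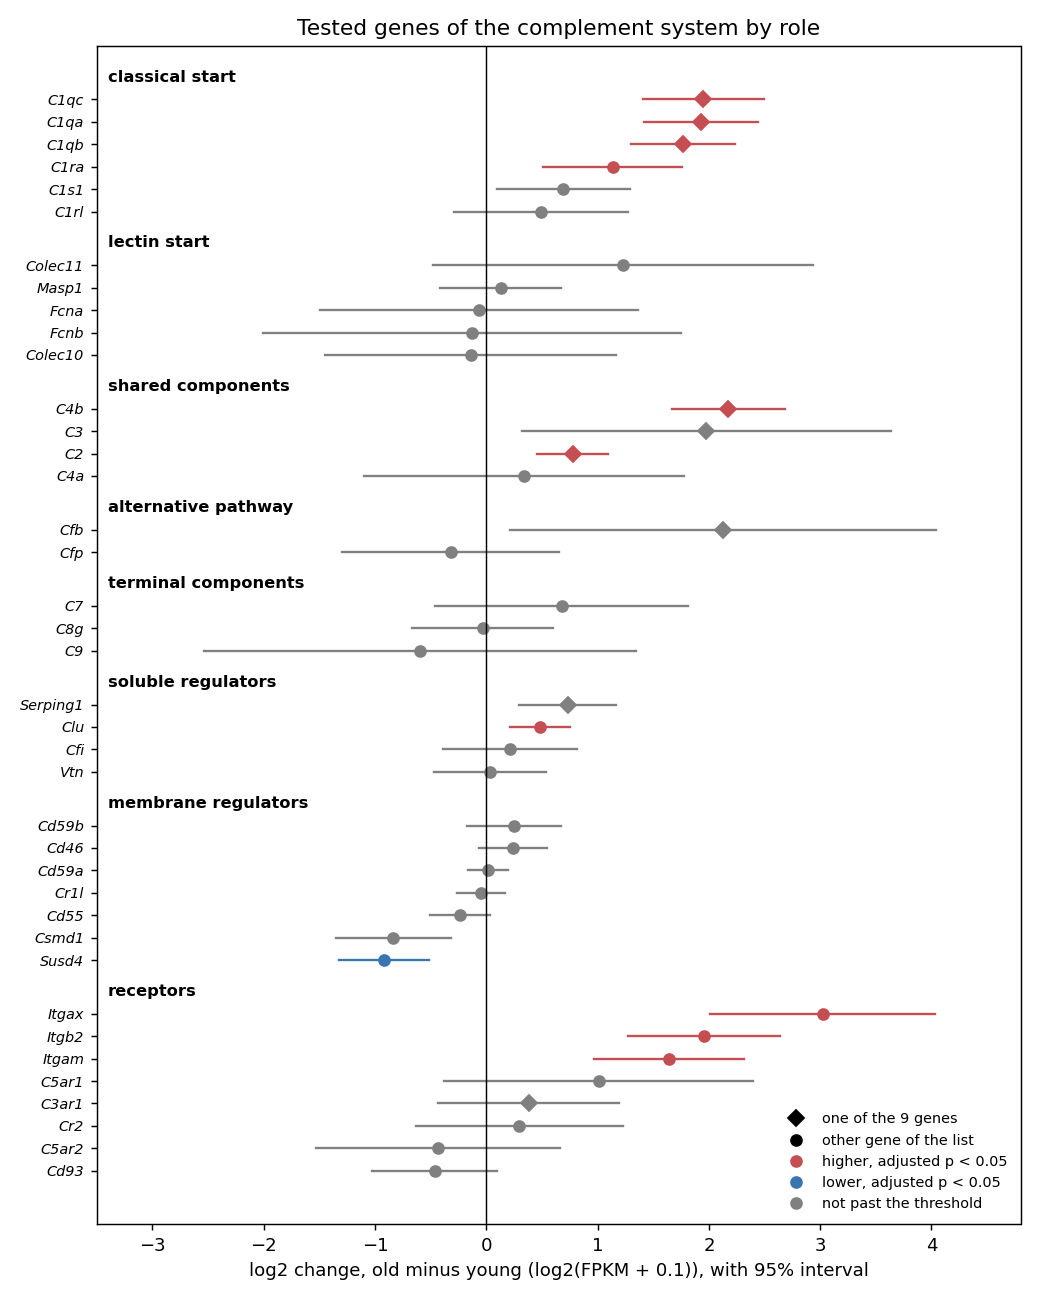
Log2 change (old minus young, log2(FPKM + 0.1), horizontal axis) with its 95% interval for 39 of the 40 tested complement genes, grouped by role, with diamonds for the 9 genes described above and colour for an adjusted p under 0.05. The classical start and the receptors hold 4 and 3 red points, while the lectin start and the terminal components hold none.

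The classical start had 4 of 6 tested genes higher. Besides the C1q chains this was C1ra, a protease that cleaves its partner in the C1 complex, which rose from 3.66 ± 0.809 to 8.33 ± 2.86 FPKM (SD, n = 3; log2 change 1.14, limma adjusted p = 0.0423). Of 8 listed lectin pathway starters 5 were tested, and of 7 listed terminal components 3 were tested. The others fell below the filter on low values. None of those tested passed the threshold, with median log2 changes of -0.07 and -0.03. Several of them were low with wide intervals, so the lack of a call does not show that they were unchanged. Among 4 shared components, C4b and C2 rose, and neither of the 2 tested alternative pathway genes passed.

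Of the soluble regulators, Clu, encoding the chaperone clusterin, was the only one of 5 called. It rose from 974.8 ± 130.1 to 1355.8 ± 119.7 FPKM (SD, n = 3; log2 change 0.48, limma adjusted p = 0.0451). Vtn, encoding vitronectin, measured 11.8 and 12.1 FPKM (limma adjusted p = 0.938).

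Of 7 membrane regulators none was higher and Susd4 was lower. Susd4, a membrane protein that restrains complement, measured 18.1, 22.7 and 13.8 FPKM in young samples and 9.39, 9.73 and 9.08 FPKM in old samples. Its groups did not overlap, and the log2 change was -0.92 ± 0.17 (SE; limma adjusted p = 0.0258). The call was kept in 1 of the 6 fits that left out a sample, the one without young replicate 3; over the 6 fits the log2 change was -1.10 to -0.74 and the limma adjusted p 0.00934 to 0.0859. Beside it, 5 of 6 spiral ganglion neuron markers were lower in old mice, and the part of neurons in the Susd4 result was not tested. The cell-surface regulators Cd59a, Cd59b and Cr1l had log2 changes of 0.02, 0.25 and -0.05 (limma adjusted p of 0.906, 0.421 and 0.777).

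Among 8 receptors, the 3 integrin genes rose. Itgam, Itgax and Itgb2 form the complement receptors that bind fragments of C3 on phagocytes. Itgam rose from 1.34 ± 0.503 to 4.28 ± 0.963 FPKM (SD, n = 3; limma adjusted p = 0.0224). Itgax rose from 0.103 ± 0.0743 to 1.49 ± 0.395 FPKM (limma adjusted p = 0.0145), and Itgb2 from 1.36 ± 0.497 to 5.50 ± 1.55 FPKM (limma adjusted p = 0.0166). These integrins are also carried by macrophages and other leukocytes.

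Like the C1q genes, most macrophage markers were higher in old mice. Of 14 macrophage genes, 10 were higher and none lower, and their summed FPKM was 104.0 to 159.3 in young and 588.0 to 676.5 in old samples, with every old sample above every young one. Among old samples the sum was highest in replicate 1, whereas the C1q chains and the mean log2 level of the markers were highest in replicate 2. Lyz2, lysozyme, was the most abundant, at 72.7 ± 13.1 FPKM in young and 450.2 ± 56.3 in old mice (SD, n = 3; limma adjusted p = 0.00163). Tyrobp and Csf1r also rose, with log2 changes of 1.86 and 1.24 (limma adjusted p of 0.0162 and 0.0145).

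The complement genes were therefore set against these markers. Relative to the summed macrophage FPKM, the log2 differences had a median of -0.37, and those of C3 and Cfb were close to 0, at -0.00 and -0.03 (two-sided exact permutation p = 1.0 for each). Lyz2 alone held 54.6 to 75.5% of that sum, and without it, a choice made after the values were seen, the median was 0.28. Relative to the mean log2 level of the 14 markers the median was 0.42, and 6 of the 9 were above 0. For the C1q chains and C4b the sign turned with the way the markers were combined, and for C3 and Cfb the difference went from near 0 to above 0.

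C2, Serping1 and C3ar1 were below 0 in each of these ways. C2 went from 18.7 ± 5.17% of the macrophage sum in young to 6.36 ± 0.594% in old mice (SD, n = 3; two-sided exact permutation p = 0.1, the smallest that 3 against 3 samples can give). The log2 differences of C2 were -1.52 against the sum, -0.87 without Lyz2 and -0.74 against the mean log2. Serping1 was at -1.57, -0.92 and -0.78 in the same order, and C3ar1 at -1.88, -1.23 and -1.13. Whether macrophages account for the C1q, C3, C4b and Cfb values was not tested.

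**Figure D3:**
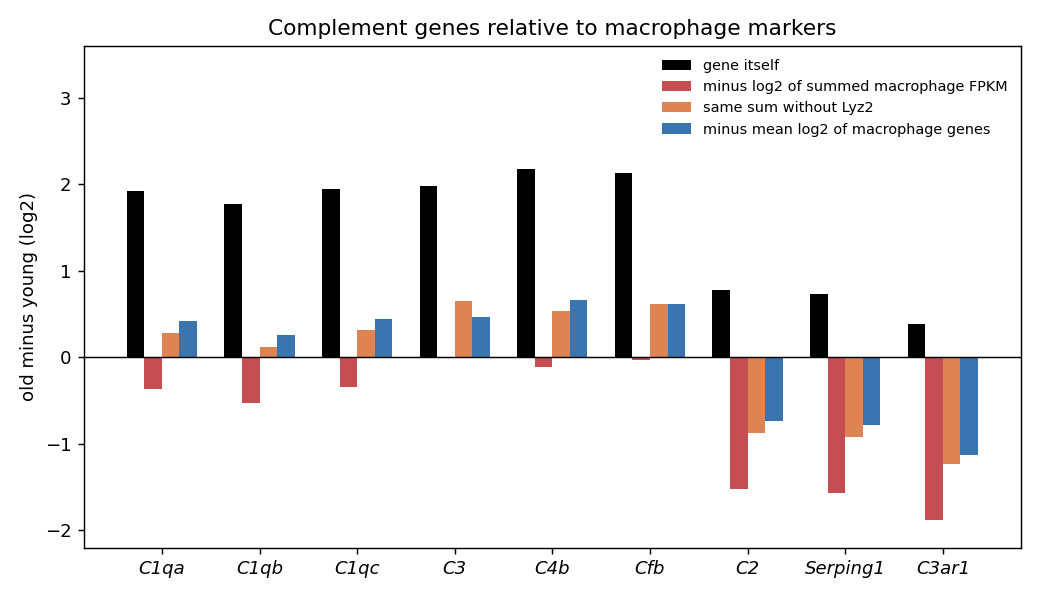
Old minus young difference (log2, vertical axis) of each complement gene by itself (black) and after subtraction of macrophage markers in 3 ways (coloured bars), with no error bars drawn. The coloured bars of C2, Serping1 and C3ar1 all lie below 0. Those of the C1q chains and C4b lie on both sides of 0, and those of C3 and Cfb lie at about 0 or above it.

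The mean level of the interferon response genes was highest in old replicate 2, as was the level of all 9 complement genes. Of 18 such genes 12 were higher and none lower, and relative to young mice their mean log2 level was 1.29, 2.76 and 1.88 in old replicates 1, 2 and 3. In the same samples C3 stood at 1.28, 3.19 and 1.47 and Cfb at 1.07, 4.02 and 1.29. C4b was at 1.88, 2.71 and 1.93 and C3ar1 at -0.08, 0.96 and 0.26. C1qa was more even, at 1.82, 2.17 and 1.79, and C2 was at 0.74, 0.81 and 0.77. The mean of the acute phase and interleukin 6 list was also highest in old replicate 2, at 0.36, 1.31 and 1.01. Ifit3, Bst2 and Irgm1, the most abundant of the list, had log2 changes of 2.67, 2.08 and 1.43 (limma adjusted p of 0.0201, 0.0205 and 0.0253).

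Acute phase and interleukin 6 genes had 3 of 8 tested genes higher, among them Socs3 and Stat3, while the abundant Cp did not pass (limma adjusted p = 0.799). None of the 8 neutrophil genes, the 5 tested B and plasma cell genes or the 3 tested hepatocyte genes was called. Ttr made up most of the sum of the hepatocyte list, and 2 other genes of that list were at 0 in every sample. The sum was 207.4 FPKM in young replicate 1, against 20.6 and 20.0 in young replicates 2 and 3 and at most 33.1 in old samples. No gene was higher among 6 fibroblast, 6 endothelial, 6 erythrocyte, 8 hair cell, 6 Schwann cell and 6 neuron markers, of which 3, 0, 0, 3, 3 and 5 were lower, and 1 of 8 supporting cell markers was higher. The part of these lists in the complement results was not tested.

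The genes whose pattern over the 6 samples was most like the mean of the complement genes were Tap1, Glycam1, Ifih1, Xaf1 and Gbp10. Their Pearson r was 0.997 to 0.998 among 14976 genes searched, as a description over samples that share age group and library. Each complement gene was centred but not scaled in that mean, so the most variable, Cfb and C3, weighed most. In old replicate 2 these stood at 4.02 and 3.19 on the log2 scale relative to young mice, against 0.81 for C2. Tap1 measured 6.94, 4.50 and 5.91 FPKM in young samples and 12.8, 25.7 and 14.1 FPKM in old samples, again with old replicate 2 the highest.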

How the data were processed

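The authors sequenced directional paired-end cDNA libraries, aligned the reads to GRCm38 with TopHat2 2.0.9 and deposited FPKM per transcript from Cufflinks and Cuffdiff 2.1.1 for the 6 samples. The annotation release was not given in the sources used here. Transcripts were assigned to genes by GENCODE M21 and summed, and 404 unmatched Ensembl transcripts were left out. The 992 study-specific transcripts were added to no annotated gene. Each was kept as a gene of its own in the counts of all genes. Genes with a mean of at least 0.1 FPKM (19465) were tested on log2(FPKM + 0.1) with limma 3.58.1 (R 4.3.3; eBayes with trend, all 6 samples, no covariate), with Benjamini-Hochberg adjustment and a threshold of 0.05. Fold changes on this scale understate low genes. Cuffdiff's own test needs reads and was not run. Intervals are 95% intervals of the limma fit. Ratios to macrophage markers used a two-sided exact permutation test, and those to summed FPKM were taken without the added 0.1. Depth was estimated from steps between low FPKM values, of which 94.4 to 95.3% lay within 0.1 of a step. The fit was tested on simulated data. The complement genes and all gene lists were chosen with earlier results of these data known. Named were all 9 genes, list genes past the threshold or with a mean of at least 10 FPKM, the 3 most abundant genes of a marker list, the 5 genes most alike in pattern, and transcripts holding at least 10% of a gene. Exceptions, chosen after their values were seen, were C4a and Gm20547. A gene of the wider list that met the rule is counted but not reported here. Alternatives covered the pseudocount, filter, scaling, variance model, sample weights, replicate block, transcript choice and each sample left out.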

Additional observations from a re-analysis of the deposited data

How the results depend on the processing

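The direction of all 9 complement genes was kept in the 17 alternatives run for each, but not all of these could change it. Where only the filter, the variance model, the replicate block or the threshold differed, the log2 change was the same by construction. The same holds for the transcript choice in genes with 1 listed transcript. The number of complement genes called higher, 5, was 1 with no filter on low values and 8 at an unadjusted p under 0.05. It was 6 with a mean of at least 1 FPKM or with arrayWeights. With a sample left out it was 1 to 5, the 1 being C4b without old replicate 2. None was called lower in any of these. With no filter, the limma adjusted p of the 3 C1q chains lay between 0.0564 and 0.0598, with their log2 changes unchanged. The share of all genes called was not counted in these settings, here or for the wider list. The number higher in the 55-gene list, 10, was 1 with no filter and 6 with eBayes without trend, and 1 to 9 with a sample left out (1 without old replicate 2, 5 without young replicate 2 or old replicate 3, 6 without old replicate 1). The number lower, 1 (Susd4), was 0 with no filter or without trend, 2 with a mean of at least 1 FPKM, with arrayWeights or at an unadjusted p under 0.05, and 0 to 2 with a sample left out (2 without young replicate 3, 0 without any other). The median difference relative to summed macrophage markers, -0.37, reversed to 0.42 with the mean log2 of the markers subtracted and to 0.28 for the sum without Lyz2, an alternative chosen after seeing the data, and was -0.66 to -0.25 with a sample left out, -0.66 being without old replicate 2. The cause of these shifts was not tested. Deviations of same-numbered samples correlated at 0.02, -0.04 and 0.01, and those of differently numbered samples at -0.05 to 0.04. With 3 samples a group this does not settle whether samples were processed in pairs, and the sample labels name no pairing. With a replicate block 5 complement genes and 8 list genes were higher and 1 lower, and calls over all genes went from 1840 to 730. With 3 samples a group, C3 varied widely at both ages and Cfb most in old samples, and at about 10 estimated fragments for C3 in young replicate 2 counting error is large.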
